A study of Solanum lycopersicum with 24 samples.

Results

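The 10 genes described here belong to the carotenoid and xanthophyll pathway of tomato and were followed through heat stress (HS) in leaves of WT and of mutants of the splicing factor genes RS2Z35 and RS2Z36. The genes were picked by their place in the pathway, without a rule on their values. Earlier results of these data were known when the genes and the tests were chosen. The genes were given as a list of identifiers with their usual names: PSY1 (Solyc03g031860), PSY2 (Solyc02g081330), PDS (Solyc03g123760), ZDS (Solyc01g097810), CRTISO (Solyc10g081650), LCYB (Solyc04g040190), LCYE (Solyc12g008980), CHYB1 (Solyc06g036260), ZEP (Solyc02g090890) and VDE (Solyc04g050930). All 10 were present among the 34075 genes of every library and all 10 entered every test, with 171 to 5758 counts per library.

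Carotenoids are made in plastids from an isoprenoid precursor: phytoene synthase makes phytoene, desaturases and an isomerase turn it into red lycopene, and cyclases close its ends into rings. The branch with β rings at each end leads to β-carotene and, after hydroxylation, to zeaxanthin, which is epoxidised to violaxanthin. The branch with an ε ring leads to lutein. In leaves these pigments sit in the light-harvesting complexes, where zeaxanthin and violaxanthin are interconverted in the xanthophyll cycle that protects photosystems from excess light, and violaxanthin and neoxanthin are also precursors of the hormone abscisic acid.

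RNA-seq was performed on 24 libraries, 3 for each of 4 genotypes under HS (40 °C, 1 h) and control (25 °C, 1 h) conditions. The genotypes were rs2z35, rs2z36 and rs2z35 36, which are homozygous CRISPR-Cas9 lines carrying frame-shifting mutations in RS2Z35, in RS2Z36 or in both, and WT plants of cv. Moneymaker; the rs2z35 36 line came from a cross of the single mutants. The plants were 6 weeks old, and the treatment was given to detached leaves rather than to intact plants, in HS and control alike; leaves of several plants were used. Because whole leaves were extracted, a lower number of cells of a type cannot be told apart from less RNA per cell.

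Each HS library held between 16853134 and 23929283 counts, and each control library between 18692423 and 22517273. The 10 most abundant genes held 13.3% ± 0.919 of the counts in HS against 5.0% ± 0.30 in control (SD, n = 12 each), and the trimmed mean of M-values (TMM) factors that correct library sizes for this lay between 0.74 and 0.85 in HS and between 1.24 and 1.33 in control. RS2Z35 was lower in rs2z35 and rs2z35 36 than in WT in control, with a log2FC of −2.56 and −2.63, and in HS, with −2.32 and −2.37. RS2Z36 was lower in rs2z35 36 than in WT in control (log2FC −0.75, edgeR adjusted p = 0.00395), whereas rs2z36 missed the threshold (log2FC −0.57, adjusted p = 0.0253), and in HS neither passed. The HS factor gene HSFA2 was higher in HS than in control in all 4 genotypes, with a log2FC of 6.91 to 7.35. Of 4 genes taken as a check of leaf identity, 3 are described as chlorophyll a-b binding proteins and together spanned 385.3 to 2570 CPM in HS and 577.9 to 2866 CPM in control (CPM, counts scaled by library size, TMM-corrected). They did not move one way with heat: in WT the log2FC of HS over control was −0.71 for Solyc01g105050, −1.15 for Solyc02g070940 and 0.73 for Solyc02g070970, the last without passing (edgeR adjusted p = 0.0130). The fourth, described as a Rubisco activase (Solyc09g011080), had 1103 to 1578 CPM in HS and 10.5 to 29.8 CPM in control.

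Of the 10 pathway genes, 5 rose in HS in all 4 genotypes (PSY1, PSY2, LCYB, CHYB1 and ZEP), and CRTISO rose in rs2z35 36 and WT. These 5 act at the entry into the pathway, in the formation of the β ring, and on the way from β-carotene through zeaxanthin to violaxanthin. PDS, ZDS, LCYE and VDE did not pass in any genotype. A gene passed when edgeR's adjusted p was below 0.01, and it was called a differentially expressed gene (DEG) when its absolute log2FC was also above 1. In HS against control, 5 of 10 genes passed as higher in rs2z35, 5 in rs2z36, 6 in rs2z35 36 and 6 in WT, while over all tested genes 20.7%, 19.3%, 22.7% and 24.3% passed as higher in these genotypes. None of the 10 passed as lower with edgeR or with DESeq2 in any of them. Over all tested genes 19.3%, 18.7%, 21.8% and 23.5% passed as lower with edgeR. At an edgeR unadjusted p under 0.05 there were 6, 6, 7 and 6 of the 10 genes, all higher in HS. Such a p, in either direction, was found for 60.6%, 59.0%, 62.4% and 64.7% of all tested genes, so these counts are near the background. As DEGs with higher levels in HS were called 2 of 10 genes in rs2z35, 3 in rs2z36, 3 in rs2z35 36 and 2 in WT, against 11.7%, 11.8%, 13.1% and 13.5% of all tested genes. The median log2FC of the 10 genes was 0.49, 0.45, 0.47 and 0.46 in rs2z35, rs2z36, rs2z35 36 and WT, and that of all tested genes was −0.03, −0.04, −0.03 and −0.03. The 4 heat comparisons have no library in common, but the HS counts of all 4 carry the authors' batch adjustment described below. Whether it ties the comparisons to each other was not tested.

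**Figure D1:**
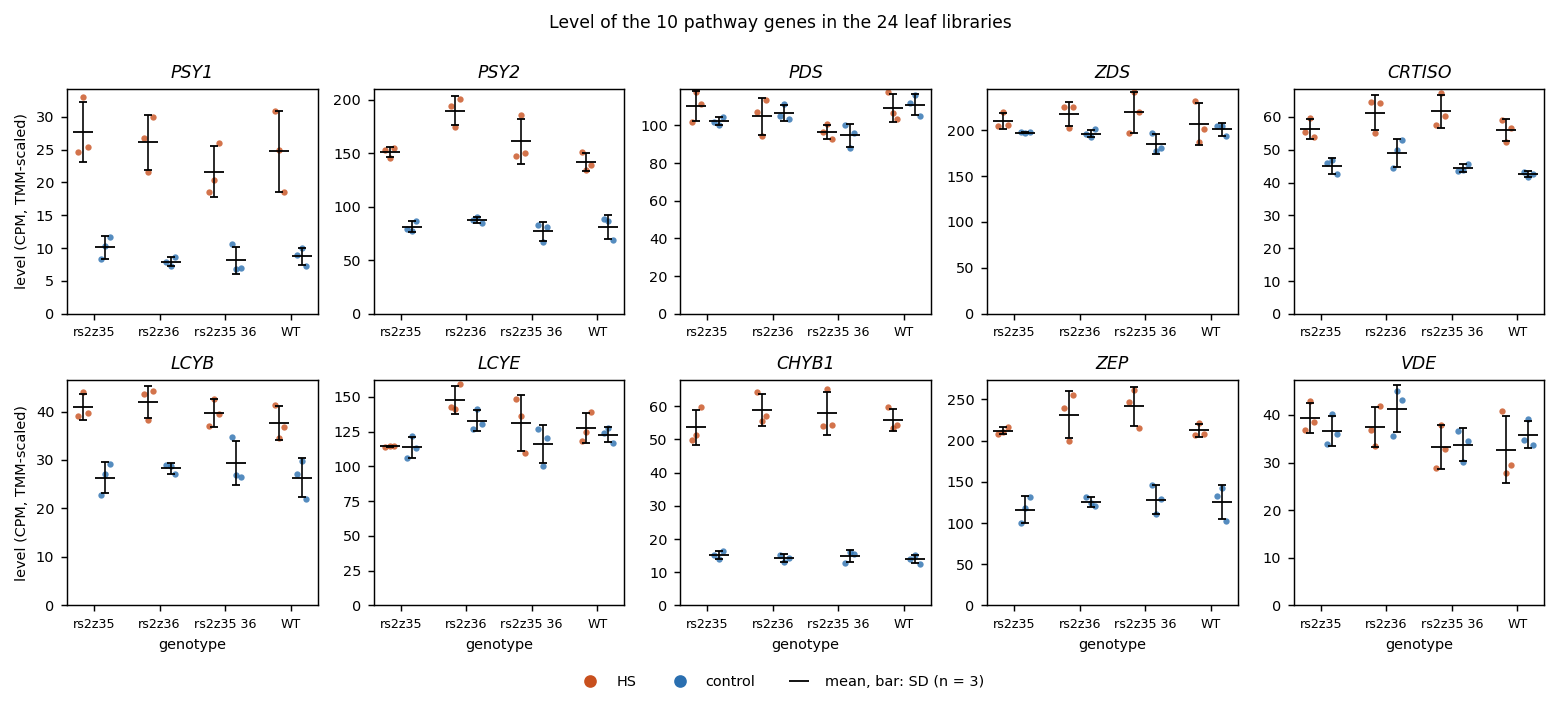
Level of each of the 10 genes in CPM (TMM-scaled, y axis from 0) in the 24 libraries, by genotype, with HS left of control; points are libraries, the horizontal mark is the mean and the bar the SD (n = 3). In PSY1, PSY2, CHYB1 and ZEP the lowest HS library lies above the highest control library (for CHYB1 at 49.9 against 16.4 CPM), whereas the conditions overlap in the other 6 genes. The share of all genes without such an overlap was not counted, so nothing particular to these genes is read from it.

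Phytoene synthase is the step that commits isoprenoid precursors to carotenoids. In tomato PSY1 is known as the isoform of ripening fruit and PSY2 as that of green tissue. In HS, PSY1 reached 24.7, 32.9 and 25.3 CPM in rs2z35, 26.7, 21.7 and 29.9 CPM in rs2z36, 18.5, 20.4 and 26.1 CPM in rs2z35 36, and 30.9, 24.9 and 18.5 CPM in WT (replicates 1 to 3). In control, PSY1 had 8.30, 10.4 and 11.7 CPM in rs2z35, 7.82, 7.33 and 8.71 CPM in rs2z36, 10.6, 6.83 and 6.97 CPM in rs2z35 36, and 9.01, 9.95 and 7.34 CPM in WT. All 12 HS libraries were above all 12 control libraries, although the HS replicates of one genotype differed widely, most of all in WT. The share of all genes separated in this way was not counted, here or for the genes below. The log2FC of PSY1 was 1.46 ± 0.16 in rs2z35, 1.71 ± 0.14 in rs2z36, 1.43 ± 0.19 in rs2z35 36 and 1.50 ± 0.18 in WT (SE), which is a 2.70- to 3.28-fold higher level (edgeR adjusted p between 1.73e-05 and 0.000119), and PSY1 was a DEG in all 4 genotypes.

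PSY2 had more counts than PSY1 in every library, but levels of different genes were not set against each other because transcript lengths were not used here. In HS, PSY2 had 153.1, 145.6 and 154.8 CPM in rs2z35, 194.4, 174.6 and 201.0 CPM in rs2z36, 147.6, 185.8 and 150.0 CPM in rs2z35 36, and 150.8, 134.4 and 139.3 CPM in WT. In control, its values were 79.0, 77.7 and 87.1 CPM in rs2z35, 87.3, 90.7 and 84.8 CPM in rs2z36, 83.4, 67.2 and 81.5 CPM in rs2z35 36, and 88.9, 86.4 and 68.6 CPM in WT. The conditions did not overlap for PSY2 either, and the 3 rs2z36 libraries held 3 of the 4 highest HS levels. Its log2FC was 0.90 ± 0.09 in rs2z35, 1.12 ± 0.09 in rs2z36, 1.08 ± 0.12 in rs2z35 36 and 0.81 ± 0.10 in WT (SE), so that only in rs2z36 and rs2z35 36 did it exceed the DEG threshold of 1. Whether that difference from WT is larger than the spread was tested by the interactions given further on.

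The middle of the pathway, from phytoene to lycopene, showed small differences between the conditions. PDS, the desaturase that acts on phytoene, ranged from 92.9 to 117.6 CPM (median 105.1) in HS and from 88.1 to 115.9 CPM (median 103.8) in control. Its log2FC lay between −0.02 and 0.12, and the 95% confidence intervals of the 4 genotypes together reached from −0.23 to 0.31. ZDS, the desaturase of the following steps, ranged from 186.8 to 241.6 CPM (median 212.7) in HS and from 177.4 to 204.9 CPM (median 197.0) in control. The log2FC of ZDS was positive in all 4 genotypes, at 0.05 to 0.27, but did not pass (edgeR adjusted p from 0.0531 in rs2z35 36 to 0.656 in WT). The ranges of the conditions overlapped for PDS and for ZDS, though 7 of 12 HS libraries of ZDS were above every control library.

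CRTISO, the isomerase whose loss gives the orange fruit of the tangerine mutant, had 52.5 to 67.4 CPM (median 58.3) in HS and 41.7 to 52.9 CPM (median 44.1) in control. The highest control library was a replicate of rs2z36, and 11 of 12 HS libraries were above it. CRTISO rose in rs2z35 36 (log2FC 0.49 ± 0.09, SE) and in WT (0.41 ± 0.07). In rs2z35 (0.33 ± 0.08, edgeR adjusted p = 0.0104) and in rs2z36 (0.33 ± 0.10, adjusted p = 0.0254) it had the same sign and did not pass. In rs2z35 36 the call for CRTISO was lost with total counts as library size, where the sign also turned.

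Lycopene is the branch point: LCYB closes β rings and LCYE the ε ring of the lutein branch. LCYB had 34.5 to 44.2 CPM (median 39.6) in HS and 22.0 to 34.7 CPM (median 27.1) in control, and 11 of 12 HS libraries were above every control library. Replicate 1 of rs2z35 36 in control, at 34.7 CPM, just exceeded replicate 2 of WT in HS, at 34.5 CPM. LCYB rose in all 4 genotypes, with a log2FC of 0.64 ± 0.11 in rs2z35, 0.58 ± 0.09 in rs2z36, 0.45 ± 0.12 in rs2z35 36 and 0.52 ± 0.12 in WT (SE). This call depended on single libraries in rs2z35 36, where it was lost without control replicate 2 or 3 or HS replicate 1, 2 or 3 (edgeR adjusted p 0.0105 to 0.0389), and in WT, where it was lost without control replicate 1 or HS replicate 1 or 3 (0.0108 to 0.0165). Over all alternatives the adjusted p of LCYB ranged from 0.000709 to 0.0679 in rs2z35 36 and from 0.000653 to 0.0905 in WT. The upper ends came from total counts as library size, where the log2FC was negative. With that scaling it was also negative and did not pass in rs2z35 (edgeR adjusted p = 0.787) and rs2z36 (0.307).

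LCYE ranged from 109.3 to 159.0 CPM (median 130.3) in HS and from 100.3 to 141.2 CPM (median 122.9) in control. Its log2FC was 0.02 in rs2z35, 0.16 in rs2z36, 0.20 in rs2z35 36 and 0.06 in WT, with 95% intervals that together reached from −0.17 to 0.48, and it passed in none. The 3 HS libraries of rs2z35 lay within 114.2 to 114.8 CPM, while those of rs2z35 36 spread over 109.3 to 148.7 CPM.

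CHYB1, a β-ring hydroxylase that converts β-carotene towards zeaxanthin, had the largest log2FC of the 10 genes in every genotype. In HS it had 49.9, 51.4 and 59.7 CPM in rs2z35, 64.3, 55.5 and 56.9 CPM in rs2z36, 54.1, 65.2 and 54.3 CPM in rs2z35 36, and 59.7, 53.4 and 54.5 CPM in WT. In control it had 15.2, 14.1 and 16.4 CPM in rs2z35, 15.3, 13.0 and 14.4 CPM in rs2z36, 12.9, 16.2 and 15.5 CPM in rs2z35 36, and 14.0, 15.2 and 12.6 CPM in WT. The conditions were far apart, and within each condition the ranges of the genotypes overlapped. The log2FC was 1.83 ± 0.11 in rs2z35, 2.05 ± 0.11 in rs2z36, 1.98 ± 0.12 in rs2z35 36 and 2.01 ± 0.09 in WT (SE), or 3.54- to 4.15-fold, with an edgeR adjusted p between 1.02e-07 and 2.85e-06. In WT this was above the log2FC of 92.9% of all tested genes, so that CHYB1 stood in the upper part of the heat response of these leaves without being at its top.

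ZEP epoxidises zeaxanthin to violaxanthin, and VDE runs the reverse reaction in strong light. In HS, ZEP had 208.1, 211.1 and 217.0 CPM in rs2z35, 239.1, 199.5 and 255.5 CPM in rs2z36, 246.9, 261.9 and 215.6 CPM in rs2z35 36, and 207.2, 221.8 and 207.9 CPM in WT. In control it had 99.9, 117.9 and 131.4 CPM in rs2z35, 132.1, 124.6 and 120.3 CPM in rs2z36, 146.1, 110.7 and 128.6 CPM in rs2z35 36, and 132.6, 142.3 and 102.9 CPM in WT. All HS libraries of ZEP were above all control libraries. ZEP rose with a log2FC of 0.87 ± 0.11, 0.88 ± 0.11, 0.93 ± 0.12 and 0.76 ± 0.12 (SE; rs2z35, rs2z36, rs2z35 36 and WT), a 1.70- to 1.90-fold higher level that stayed below the DEG threshold. VDE, in contrast, had 27.8 to 42.9 CPM (median 36.9) in HS and 30.0 to 45.0 CPM (median 35.8) in control. The log2FC of VDE lay between −0.14 and 0.11 with 95% intervals that together reached from −0.42 to 0.34, and it passed in none of the genotypes.

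**Figure D2:**
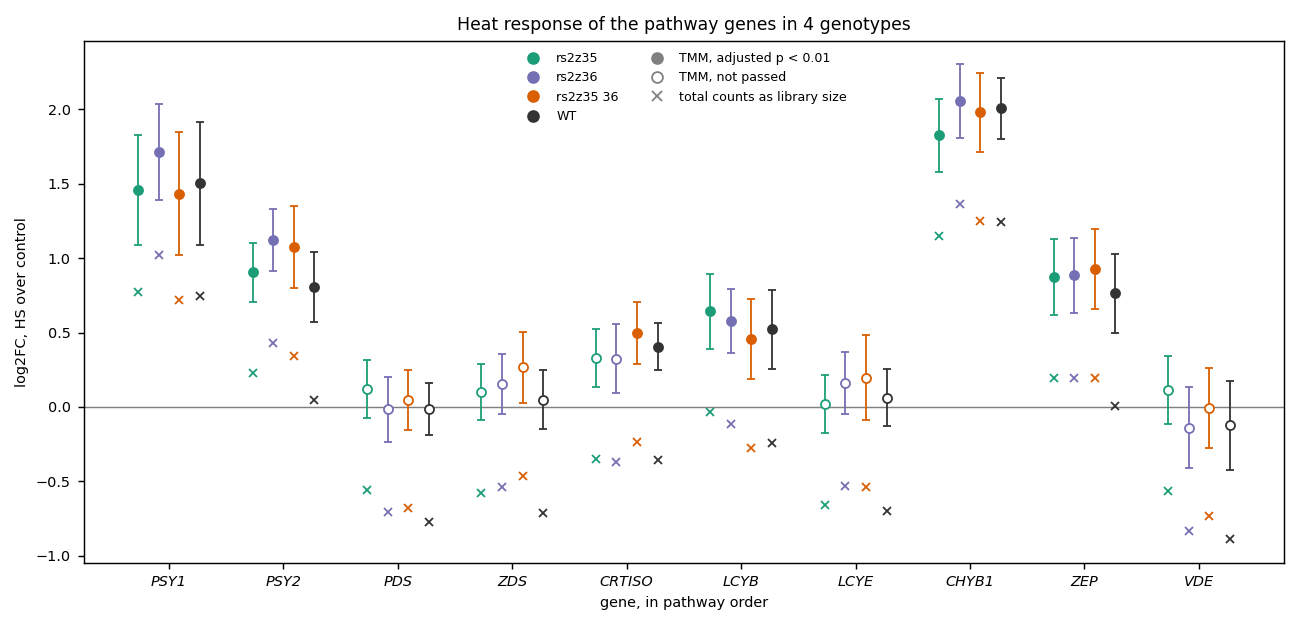
log2FC of HS over control (y axis) of the 10 genes in pathway order (x axis) in rs2z35, rs2z36, rs2z35 36 and WT; circles with 95% confidence intervals are TMM-scaled fits, filled where the adjusted p was below 0.01, and crosses are the same fits with total counts as library size. CHYB1 (1.83 to 2.05) and PSY1 (1.43 to 1.71) are highest, and the crosses lie lower for all genes, below 0 for PDS, ZDS, CRTISO, LCYB, LCYE and VDE.

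These directions are relative to the TMM scale. With total counts as library size, the median log2FC of all tested genes moved to −0.70 in rs2z35, −0.72 in rs2z36, −0.76 in rs2z35 36 and −0.79 in WT, and in WT 9.75% of them passed as higher and 57.5% as lower. On that scale CHYB1 (log2FC 1.15, 1.37, 1.25 and 1.25) and PSY1 (0.77, 1.02, 0.72 and 0.74) still passed as higher in all 4 genotypes and PSY2 in rs2z36, ZEP (0.0030 to 0.20) passed in none, LCYB (−0.27 to −0.04) and CRTISO (−0.37 to −0.23) turned negative, CRTISO passing as lower in rs2z35 and WT, and PDS, ZDS, LCYE and VDE passed as lower in all 4. The distance of each gene from the median of all genes was about the same on either scale.

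The heat comparisons also carry the authors' batch adjustment of the HS libraries, whose counts are set against unadjusted control counts. When log2 CPM was divided into genotype, replicate number and residual, the mean square of replicate number was a median 0.00853 times the residual one in HS (17745 genes) and 0.843 times in control (18726 genes). For the 10 genes this ratio lay between 0.00235 (PSY1) and 0.0222 (PDS) in HS and between 0.0250 (LCYE) and 1.05 (ZDS) in control. The same adjusted HS counts enter the comparisons of mutants with WT in HS and the interactions. The part of the adjustment in the heat response and in these comparisons was not tested.

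Ratios of counts within a library do not depend on how libraries are scaled, and 3 of them compare enzymes that act at the same step or in opposite directions. The log2 ratio of ZEP to VDE averaged 2.66 ± 0.24 in HS and 1.75 ± 0.20 in control (SD, n = 12 each), a 1.88-fold difference. All 12 HS libraries were above all control libraries for this ratio, in which ZEP had 4.91 to 8.58 counts per count of VDE in HS and 2.77 to 3.98 in control. The log2 ratio of LCYB to LCYE averaged −1.69 ± 0.21 in HS and −2.14 ± 0.16 in control, a 1.36-fold difference, with 9 of 12 HS libraries above all control libraries. The log2 ratio of PSY1 to PSY2 averaged −2.69 ± 0.31 in HS and −3.24 ± 0.24 in control, a 1.46-fold difference, with 8 of 12 HS libraries above all control libraries. In an exact two-sided permutation test with conditions exchanged only within a genotype (160000 arrangements), p was 1.25e-05 for ZEP to VDE, which is the smallest p these arrangements can give, 3.75e-05 for LCYB to LCYE and 5e-05 for PSY1 to PSY2. Adjusted over the 3 ratios, these values were 3.75e-05, 5e-05 and 5e-05. The ratios are built from the same counts as the heat tests of the single genes, so these p-values are no separate support. Other pairs of genes were not tested in this way, so nothing particular to these 3 ratios is read from them. Within a genotype 3 libraries against 3 cannot give a p below 0.1.

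The ratio of ZEP to VDE was higher in HS without overlap in each genotype, by 0.77 in rs2z35, 1.02 in rs2z36, 0.94 in rs2z35 36 and 0.92 in WT on the log2 scale. For LCYB to LCYE the differences were 0.63, 0.42, 0.27 and 0.47, and for PSY1 to PSY2 they were 0.55, 0.59, 0.37 and 0.67. In rs2z35 36 the conditions overlapped for these last 2 ratios, and in the other genotypes they did not. All 3 ratios rest on the adjusted HS counts as the levels do.

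**Figure D3:**
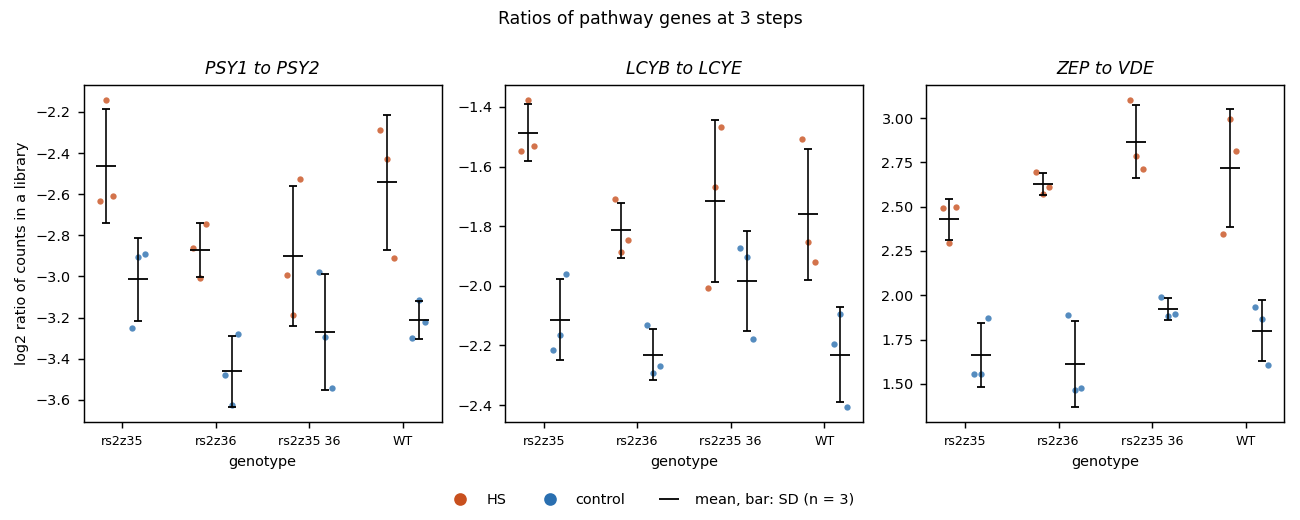
log2 ratio of counts within a library (y axis) of PSY1 to PSY2, LCYB to LCYE and ZEP to VDE by genotype, with HS left of control; points are libraries, the horizontal mark is the mean and the bar the SD (n = 3). The conditions are apart in every genotype for ZEP to VDE, and overlap in rs2z35 36 for the other 2 ratios.

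The loss of RS2Z35, RS2Z36 or both was compared with WT under each condition to ask whether these splicing factors affect the level of the pathway transcripts. None of the 10 genes passed in any of these 6 comparisons with edgeR. In HS, 0 of 10 genes passed in rs2z35, rs2z36 and rs2z35 36 against WT, where over all tested genes 0.0302%, 0.255% and 0.358% passed, so that with 10 genes a count of 0 is also near the background. In control the count was again 0 of 10 in each mutant, where over all tested genes 0.0637%, 0.225% and 0.357% passed. At an edgeR unadjusted p under 0.05 there were 0, 1 and 0 of 10 genes in HS and 0, 1 and 1 in control. Over all tested genes 8.56%, 15.2% and 14.2% had such a p in HS, and 10.5%, 14.1% and 17.0% in control. DESeq2 passed 0, 1 and 0 genes in HS and 0 in each mutant in control. Of all 23532 genes tested in control it passed 224, 283 and 481, where edgeR passed 15, 53 and 84. The edgeR shares are therefore no background for the DESeq2 counts, and the DESeq2 shares in HS are not given here. The 3 mutants share their WT libraries.

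In HS the log2FC of the 10 genes lay between −0.14 and 0.29 in rs2z35, between −0.04 and 0.44 in rs2z36 and between −0.18 and 0.20 in rs2z35 36. Their 95% confidence intervals together reached from −0.37 to 0.60, from −0.32 to 0.66 and from −0.60 to 0.42. In control the log2FC lay between −0.12 and 0.21, between −0.14 and 0.21 and between −0.23 and 0.15, with intervals from −0.41 to 0.61, from −0.54 to 0.44 and from −0.52 to 0.44. As fitted, the intervals leave out a change by more than a log2FC of 1 for each of the 10 genes, but not smaller changes. In HS they rest on the batch-adjusted counts, and their width without the adjustment is not known. The widest were those of PSY1.

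The smallest adjusted p belonged to PSY2 in rs2z36 in HS, where its 194.4, 174.6 and 201.0 CPM stood above the 150.8, 134.4 and 139.3 CPM of WT without overlap. The log2FC was 0.44, with a 95% interval of 0.22 to 0.66, and did not pass with edgeR (adjusted p = 0.0513), whereas DESeq2 gave 0.44 and an adjusted p of 0.00735, the lowest of a range up to 0.214 over 14 alternatives. In rs2z35 36 in HS, PSY2 also had the smallest adjusted p of the 10 genes (log2FC 0.20, edgeR adjusted p = 0.398), and in rs2z35 in HS it was VDE (0.29, adjusted p = 0.638). In control the smallest adjusted p belonged to PDS in rs2z35 (log2FC −0.12, edgeR adjusted p = 0.597), to CRTISO in rs2z36 (0.21, 0.248) and to PDS in rs2z35 36 (−0.23, 0.123). For PDS in rs2z35 36 the control levels were 100.1, 88.1 and 95.8 CPM, against 112.1, 115.9 and 104.9 CPM in WT, without overlap. How many of all genes were separated from WT in this way was not counted. Nothing particular to PSY2 or PDS is therefore read from the lack of overlap.

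**Figure D4:**
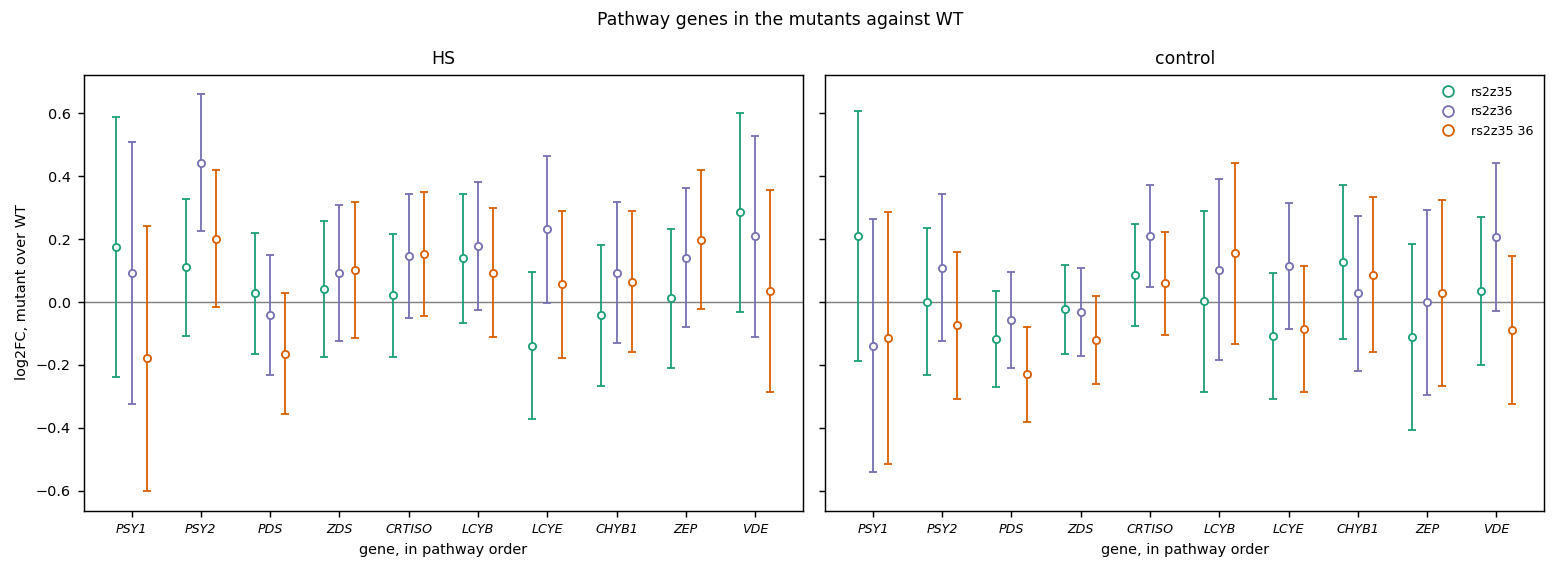
log2FC of each mutant over WT (y axis) with 95% confidence intervals for the 10 genes in pathway order (x axis), in HS (left) and control (right). All circles are open since no gene passed, and the highest value is that of PSY2 in rs2z36 in HS (0.44).

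Whether the heat response itself differed between a mutant and WT was tested as an interaction on all 24 libraries. With edgeR 0 of 10 genes passed for rs2z35, rs2z36 or rs2z35 36, where over all tested genes 0.0122%, 0.114% and 0.0447% passed. At an edgeR unadjusted p under 0.05 the count was 0, 1 and 0, against 7.40%, 8.75% and 8.55% of all tested genes. DESeq2 passed 0 in each. The 95% intervals of the 10 genes together reached from −0.62 to 0.63 for rs2z35, from −0.41 to 0.80 for rs2z36 and from −0.66 to 0.57 for rs2z35 36. Differences inside them could not be resolved. The smallest adjusted p belonged to VDE for rs2z35 (difference in log2FC 0.24, edgeR adjusted p = 0.822) and to PSY2 for rs2z36 (0.32, 95% interval 0.01 to 0.63, adjusted p = 0.557) and for rs2z35 36 (0.26, adjusted p = 0.656). The DEG call of PSY2 in rs2z36 and rs2z35 36 but not in WT is therefore not shown to be a difference between genotypes.

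In some groups 1 library was the lowest of its 3 for most of the 10 genes, and in others it was not. In HS this was replicate 2 of rs2z36 for 10 of 10 genes, replicate 1 of rs2z35 for 8, replicate 1 of rs2z35 36 for 7 and replicate 2 of WT for 6. In control it was replicate 1 of rs2z35 for 5, replicate 3 of rs2z36 for 4, replicate 2 of rs2z35 36 for 7 and replicate 3 of WT for 9. The same count over all genes was not made, so nothing particular to the 10 genes is read from it. PSY1 varied most around the group means, with an SD of log2 CPM of 0.28 in HS and 0.25 in control, against a median of 0.13 and 0.12 over the 8799 genes with at least the mean level of the lowest of the 10. ZDS varied least in control, with an SD of 0.05, and had 0.12 in HS.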

How the data were processed

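Polyadenylated RNA of tomato leaves was sequenced from both ends from non-directional libraries. The authors used STAR (genome SL4.0, annotation ITAG4.0) for mapping and HTSeq 0.9.1 for counting over coding genes, and they deposited a count for each gene and library. They adjusted the HS counts with ComBat-Seq before depositing them; the batch variable and the handling of reads that map to several genes are not given in the sources used here. Without strand, reads of overlapping antisense genes cannot be told apart.

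The deposited counts were tested, for genes reaching a read sum of 10 in a fit, with edgeR 4.0.16 in R 4.3.3 (TMM scaling, quasi-likelihood test, Benjamini-Hochberg adjustment over all tested genes). Heat was tested on the 6 libraries of a genotype, mutants against WT on the 12 libraries of a condition, and interactions on all 24, with 0 rows that name no gene. The methods of the study used DESeq2 with the same thresholds. CPM were scaled with TMM factors over all 24 libraries; log2 CPM used a prior count of 2 and ratios a pseudocount of 0.5. The steps were tested on simulated data with the same spread for all genes, in which 200 genes were given a log2FC of 1. Of these, 97.5% passed for heat in WT, 97% for rs2z36 against WT in HS and 58% for the interaction of rs2z36. The study used 3 biological replicates, and p-values measure the spread between them. In HS this is the spread left after the batch adjustment, for which the fits make no allowance. How far the p-values of heat, of mutants in HS and of interactions depend on the adjustment was not tested.

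Alternatives were DESeq2 1.42.0 without shrinkage, its size factors in edgeR, total counts as library size, no filter, filterByExpr, a block for the replicate number, a fit of all 24 or of only the 6 libraries compared, and the omission of single libraries. Every gene of the list was named for heat, and for mutants and interactions those that passed and the one with the smallest adjusted p. The 10 genes, the lists and the tests were chosen with earlier results of these data known. Lists of isoprenoid supply, other carotenoid and marker genes had also been set up; as the sources used here pair few of their identifiers with names, they were not used as lists, and no sequences, lengths or coordinates were used. Correlations between the 10 genes over group means are not given, since these means fall into an HS and a control cluster. No replicates of a group were alike within sampling noise (chi-square per degree of freedom 4.58 to 27.0).

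Replicate numbers recur in all groups. Same-numbered libraries deviated together with every correlation over 0.1 only for rs2z36 against WT in control (0.28 to 0.60). There the fit with the number as a block also passed 0 of the 10 genes. The numbers were not treated as pairs elsewhere. In HS the adjusted counts had nearly equal averages per replicate number, so the correlations cannot show whether HS libraries were paired. No conclusion on pairing is drawn from them for the HS and heat comparisons.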

Additional observations from a re-analysis of the deposited data

How the results depend on the processing

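Of the heat log2FC values under alternatives, 38 changed sign, and these were counted only as such, also where their call changed. Of those that kept their sign, 16 no longer passed, 10 passed newly, and 456 kept direction and side of the threshold. All 81 alternative values of the ratios, 137 for mutants and interactions (1 passed newly), and 282 counts (12 moved by over 1.5 times) kept theirs. With total counts as library size, 2, 3, 2 and 2 of the 10 genes passed as higher in HS and 5, 4, 4 and 5 as lower (rs2z35, rs2z36, rs2z35 36, WT), and 1 gene was a DEG in rs2z35, rs2z35 36 and WT each. On that scale 8.56%, 8.66%, 9.73% and 9.75% of all tested genes passed as higher. As lower passed 51.6%, 50.9%, 54.8% and 57.5%, so the counts of lower genes are near the background. The log2FC then turned to −0.56, −0.58, −0.35, −0.037, −0.66 and −0.57 for PDS, ZDS, CRTISO, LCYB, LCYE and VDE in rs2z35. In rs2z36 it was −0.54, −0.37, −0.11 and −0.53 for ZDS, CRTISO, LCYB and LCYE. In rs2z35 36 it was −0.68, −0.46, −0.23, −0.27 and −0.54 for PDS, ZDS, CRTISO, LCYB and LCYE, and in WT −0.71, −0.36, −0.24 and −0.70 for ZDS, CRTISO, LCYB and LCYE. The larger share of counts in a few HS genes enters this scaling by construction. Other changes of sign lay near 0, in genes that did not pass: PDS in rs2z36 (0.0035 with DESeq2, 0.0037 with its size factors), VDE in rs2z35 36 (0.0014, 0.0013, and 0.0084 with filterByExpr) and PDS in WT (0.0032 with filterByExpr). Leaving out single libraries gave −0.026 to 0.071 for LCYE in rs2z35, −0.057 to 0.085 for PDS in rs2z36, −0.0014 to 0.093 for PDS and −0.11 to 0.10 for VDE in rs2z35 36, and −0.055 to 0.028 for PDS, −0.027 to 0.12 for ZDS and −0.0038 to 0.13 for LCYE in WT. DESeq2 passed 1 of the 10 genes for rs2z36 against WT in HS (PSY2). For CRTISO, the all-library fit added a call in rs2z35 and rs2z36, and DESeq2, its size factors and filterByExpr added one in rs2z35. The cause of these changes was not tested.

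With the replicate number as a block, the log2FC of LCYB in rs2z35 36 was 0.46 and its call was lost (edgeR adjusted p = 0.0105); no other call of the 10 genes changed. With 3 libraries a group, the 95% intervals of the mutant effects reached a log2FC of 0.66 (PSY2 in rs2z36 in HS) and −0.60 (PSY1 in rs2z35 36 in HS), and effects inside them could not be resolved.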

Other observations

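A further 4 carotenoid genes carry a name in the descriptions used by the study. They were chosen after their values in these libraries had been seen, so their differences are descriptions, and no test of them is given as support. CYP97C11 (Solyc10g083790), the cytochrome P450 known in tomato as the hydroxylase of the ε ring on the way to lutein, had lower levels in rs2z35 36 than in WT. In HS it had 30.2 ± 2.03 CPM in rs2z35 36, 52.3 ± 1.48 CPM in rs2z35 and 53.0 ± 4.26 CPM in rs2z36, against 58.1 ± 3.87 CPM in WT (SD, n = 3 each). In control it had 30.7 ± 4.28 CPM in rs2z35 36, 45.6 ± 3.18 CPM in rs2z35 and 51.4 ± 4.04 CPM in rs2z36, against 60.0 ± 4.42 CPM in WT. The 3 libraries of rs2z35 36 were below those of WT without overlap in each condition, and the share of all genes separated in this way was not counted. The log2FC of rs2z35 36 over WT was −0.93 ± 0.08 in HS and −0.97 ± 0.11 in control (SE), and over the 14 alternatives, which use the same libraries, it lay at −0.98 to −0.88 in HS and −1.06 to −0.86 in control. In the single mutants the log2FC was −0.14 and −0.12 in HS and −0.39 and −0.22 in control for rs2z35 and rs2z36. For HS against control, CYP97C11 had a log2FC of −0.04 to 0.20 in the 4 genotypes.

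For the other 3 genes, all 12 HS libraries were above all 12 control libraries. A further gene described as a zeaxanthin epoxidase (Solyc01g009080) had 27.9 to 41.4 CPM in HS and 12.7 to 20.4 CPM in control, with a log2FC of 1.14, 1.02, 1.13 and 1.26 in rs2z35, rs2z36, rs2z35 36 and WT. Carotenoid cleavage dioxygenase 1B (Solyc01g087260), of a family that cuts carotenoids into apocarotenoid volatiles, had 83.5 to 158.0 CPM in HS and 39.3 to 56.2 CPM in control (log2FC 1.16, 1.20, 1.24 and 1.43). A neighbouring identifier described as carotenoid cleavage dioxygenase 1 (Solyc01g087270) had 5.13 to 9.97 CPM in HS and 1.10 to 2.98 CPM in control (log2FC 1.89, 1.52, 1.49 and 2.00), from 27 to 163 counts per library. Reads shared between such related genes cannot be told apart here. With total counts as library size, the log2FC of these 3 genes was lower, at 0.32 to 0.50 for the epoxidase gene, 0.48 to 0.67 for dioxygenase 1B and 0.76 to 1.24 for the neighbouring identifier.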
